A study of Mus musculus with 31 samples.

Results

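The heat shock chaperones described here were 10 mouse genes, chosen by name (Hspa1a, Hspa1b, Hspa8, Hsph1, Dnajb1, Bag3, Hsp90aa1, Hspb1, Hspd1 and Hspe1), of the 46072 genes that the expression tables list. All 10 were present in each of the 31 libraries and passed the filter on low values in both tumor models. The question was how their mRNA changed in the hours after focal radiotherapy (RT) of 2 kinds of mouse tumor.

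Messenger RNA was sequenced from RM-9 (a mouse prostate cancer line) and MC-38 (a mouse colon cancer line) tumors, 1 library per mouse. There were 4 RM-9 mice in each of the control, RT 3 h and RT 12 h groups and 3 in the RT 24 h group, and MC-38 had 4 mice in each group. The hosts were wild-type male C57BL/6J mice (C57BL/6 in the labels) bought at 6 to 7 weeks of age. Each was injected under the skin of the right hind leg, with 1 M tumor cells by the labels. The study's methods give 1 to 2 M for MC-38. RT was 1 dose of 15 Gy once tumors measured about 8 mm across, and the times count from RT. Control mice were labelled as untreated but carry the 3 h time label, so the RT 12 h and RT 24 h groups have no control of their own time. The 2 tumor models were separate sets of libraries, and the model and the set cannot be told apart.

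Depth was 21.4 to 29.4 M reads per library. Levels are given in TPM, the share of a library's transcripts scaled for transcript length, so they can be compared between genes. The part of TPM taken by mitochondrially encoded genes differed between groups. In RM-9 it was 47.8 to 50.5% in controls and 52.4 to 57.2% at 12 h, and in MC-38 it was 25.7 to 40.6% in controls and 23.0 to 25.9% at 12 h. A gain of one gene in TPM lowers the others, so the changes that passed the test are also given after median-ratio scaling, in which each library is divided by the median ratio of its genes to their average level. RM-9 tumors held the epithelial keratin Krt8 at 463 to 1069 TPM, while the prostate gene Pbsn was listed at 0 in all 15 libraries. In MC-38 tumors, labelled adenocarcinoma, Krt8 did not exceed 0.202 TPM. Of the colon genes Cdx1 and Cdx2 were listed at 0 in all 16 MC-38 libraries, Lgr5 did not exceed 0.184 TPM, Vil1 was at 0.229 to 1.54 TPM and Cdh17 at 0.387 to 1.72 TPM. The lineage genes did not sort by label throughout, since Cdx2 was at 3.74 to 7.68 TPM in RM-9 and the prostate gene Hoxb13 at 0.450 to 3.03 TPM in MC-38 and at most 0.0547 TPM in RM-9.

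Heat shock proteins are chaperones that bind unfolded or partly folded proteins and help them fold, hold them, or pass them to degradation. Cells make more of the inducible members under heat and other stress that damages proteins, mainly through the transcription factor HSF1, which binds repeats of the 5-base unit nGAAn in promoters. HSP70 proteins work in cycles with J-domain partners and nucleotide exchange factors, whereas HSP90, the small heat shock proteins and the mitochondrial HSP60 and HSP10 pair act on other clients or in other places.

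Hspa1a (chr17:34969190-34972156) and Hspa1b (chr17:34956436-34959238) lie beside each other on the minus strand of chromosome 17, in coordinates of the deposited tables, which match GRCm38 gene models. Both encode the stress-inducible HSP70. The RefSeq promoter windows, 300 bases around the start site, of these genes differed at 4 positions, and the stretches from -160 to -41, shown because the 2 genes gave the clearest change after RT, were identical. In these and the next sequences, capitals mark the inverted nGAAn pairs that were searched for, GAANNTTC and TTCNNGAA. Each reads the same on both strands, so 1 search covers both, and pairs that share a unit overlap. The sequences are from RefSeq on GRCm38.p6, on the strand of the gene.
Hspa1a (chr17:34972197-34972316, minus strand): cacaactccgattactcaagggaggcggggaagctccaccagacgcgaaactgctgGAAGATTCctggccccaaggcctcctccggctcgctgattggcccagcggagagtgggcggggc
Hspa1b (chr17:34959279-34959398, minus strand): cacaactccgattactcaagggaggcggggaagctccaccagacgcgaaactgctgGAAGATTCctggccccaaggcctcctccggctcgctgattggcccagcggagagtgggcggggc
Hspb1 (chr5:135887759-135887878, plus strand): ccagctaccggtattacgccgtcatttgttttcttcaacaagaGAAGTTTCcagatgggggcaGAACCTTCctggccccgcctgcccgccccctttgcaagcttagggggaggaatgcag

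Other members are shown by the bases around their pairs, for comparison with the inducible HSP70 genes. The stretch of Hspe1 starts 95 bases before its start site, those of Hsph1 start at -44 and at 29, and that of Bag3 starts at 32.
Hspe1 (chr1:55088053-55088082, plus strand): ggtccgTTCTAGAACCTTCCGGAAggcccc
Hsph1 (chr5:149636351-149636380, minus strand): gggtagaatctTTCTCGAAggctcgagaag
Hsph1 (chr5:149636287-149636308, minus strand): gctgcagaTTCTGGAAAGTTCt
Bag3 (chr7:128523614-128523632, plus strand): ggatgggaccaGAAGTTTC

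Of the 10 members, 8 had a promoter entry (not Hspa8 and Hsp90aa1), and 6 of these 8 held at least 1 pair in the entry whose start site lies nearest to that of the deposited tables. Among all 32851 promoter windows of the same length, 15.06% held a pair, GAANNTTC being in 7.86% and TTCNNGAA in 8.52%. Hsph1 and Hspe1 each held at least 3 units in a row, from 2 pairs that overlap by a unit in Hsph1 and 3 in Hspe1, which 0.6027% of all windows did. The 2 entries of Dnajb1 held no pair, and of the 2 entries of Hspd1 the nearest held none and the other did, which says only whether these letters are in those windows.

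Before RT, the 2 inducible HSP70 genes had the lowest mean levels of the set in both models. Hspa8, the HSP70 that cells make without stress, was the highest, with 889 ± 53.4 TPM in RM-9 controls and 1020 ± 108 TPM in MC-38 controls (mean ± SD, n = 4 mice each, as for all control values). Hspd1 (HSP60, the mitochondrial chaperonin) followed at 351 ± 33.0 and 478 ± 72.6 TPM. Then came Hspe1, its HSP10 lid, and Hsp90aa1, the stress-responsive cytosolic HSP90, whose ranges overlapped in both models (196 and 197 TPM in RM-9, 307 and 289 TPM in MC-38). Hsph1, an HSP110 that exchanges nucleotide on HSP70, stood at 38.3 ± 2.10 and 81.9 ± 11.7 TPM. Hspa1b had 10.5 ± 1.47 and 5.20 ± 1.29 TPM and Hspa1a 5.33 ± 0.981 and 2.67 ± 0.539 TPM, the lowest of the 10. The ranges of Hspb1 overlapped those of its neighbors in this order in both models.

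**Figure D1:**
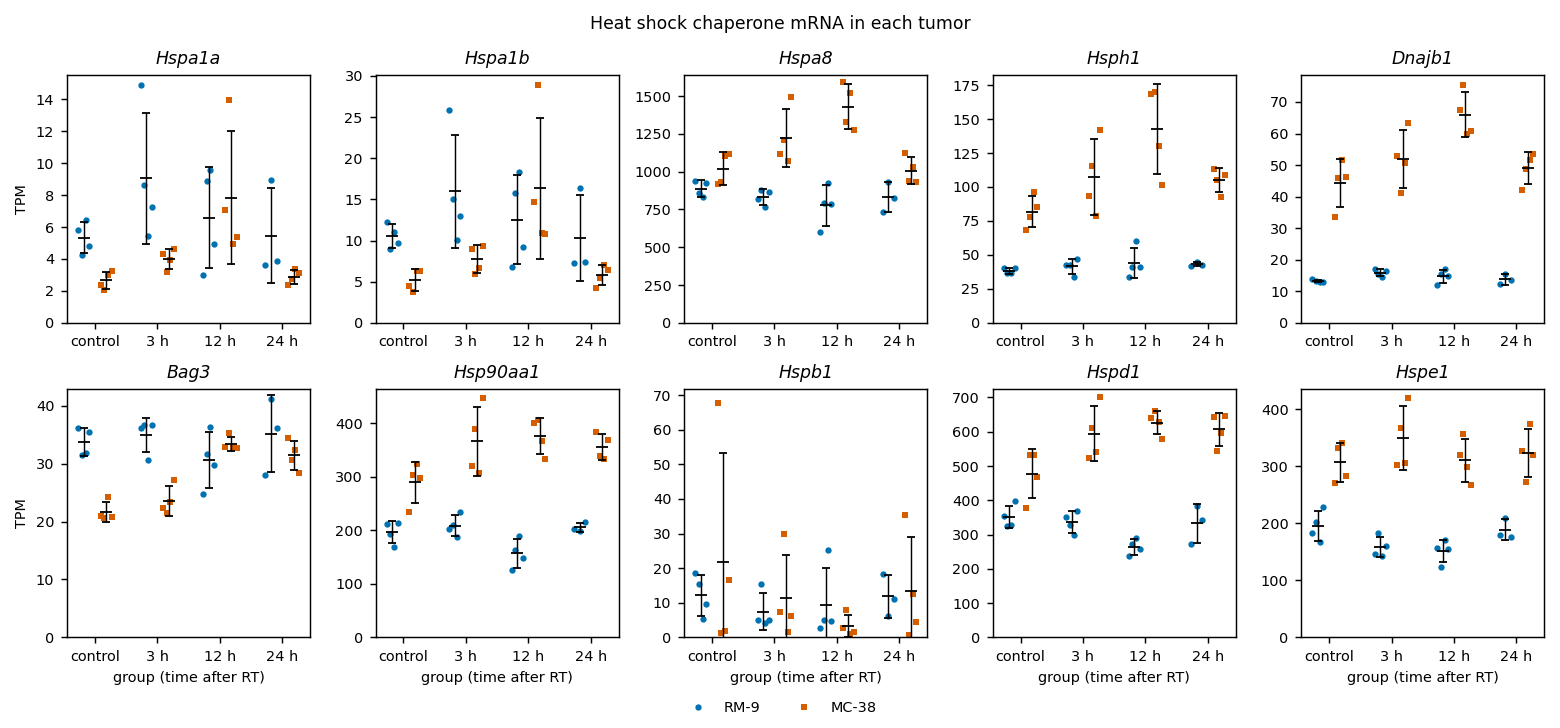
TPM of the 10 chaperone genes (1 panel each, vertical axes from 0 with a scale of their own) by group, with RM-9 mice as circles and MC-38 mice as squares, 1 point per mouse, and bars for the mean ± SD. In MC-38 tumors at 12 h all 4 mice lay above all 4 controls for 8 of the 10 genes (34.5% of all genes, and 3 of the 10 after median-ratio scaling), whereas Hspb1 was spread widely within every group.

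In TPM as deposited, the controls of the 2 models differed most in the J-domain protein Dnajb1, the main partner that delivers clients to inducible HSP70, with 13.3 ± 0.387 TPM in RM-9 and 44.3 ± 7.56 TPM in MC-38. That was a 3.22-fold higher level in MC-38 (log2 difference 1.69 ± 0.13 SE, limma adjusted p = 4.91e-12, Benjamini-Hochberg as throughout). Limma called 5 members higher in MC-38 controls (64.7% of all genes tested) and 3 lower (10.7% of all genes). The median of all genes was itself 0.63 higher on the log2 scale, and under median-ratio scaling Dnajb1 (1.03) and Hsph1 (0.41) remained higher, Hspe1 (-0.020), Hsp90aa1 (-0.12) and Hspd1 (-0.23) turned negative, and Hspa8 turned from 0.20 to -0.48, leaving 2 members called higher (33.4% of all genes) and 5 lower (32.2%). Hspa1b (-0.97, limma adjusted p = 0.00723), Hspa1a (-0.88, limma adjusted p = 0.0151) and Bag3 (-0.62, limma adjusted p = 1.46e-05), an HSP70 co-chaperone that feeds clients to autophagy, were lower in MC-38 under both scalings, at -1.60, -1.47 and -1.28 after median-ratio scaling.

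In MC-38 tumors at 12 h after RT, the 2 inducible HSP70 genes rose, with the largest increases of the set, and these calls held under every scaling tried. Hspa1b was at 4.45, 3.77, 6.29 and 6.28 TPM in the 4 control mice and at 14.7, 28.9, 10.9 and 10.8 TPM in the 4 RT 12 h mice. Hspa1a was at 2.37, 2.07, 3.02 and 3.22 TPM in controls and at 7.09, 13.96, 4.95 and 5.37 TPM at 12 h. Every RT 12 h mouse lay above every control mouse for both genes, and mouse 2 had the highest level of each. Hspa1b was 2.78-fold higher (log2 change 1.47 ± 0.27 SE, 95% interval 0.90 to 2.05, limma adjusted p = 0.00677) and Hspa1a was 2.45-fold higher (1.30 ± 0.25 SE, 0.77 to 1.82, limma adjusted p = 0.00823), on the log2(TPM + 0.5) scale, which understates changes of low genes. Under median-ratio scaling the log2 changes were 1.15 (limma adjusted p = 0.0115) and 0.99 (limma adjusted p = 0.0149). Without RT 12 h mouse 2 they were 1.17 and 0.99 in TPM and 0.85 and 0.70 after median-ratio scaling. Both genes passed the limma threshold in all 8 fits that left out 1 mouse, with either scaling.

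Both genes of the pair moved in parallel. Across all 31 libraries Hspa1b stood at 1.70 to 2.26 times Hspa1a, with a median of 1.95. Of the 75-base windows of the Hspa1a transcript 52.7% also occur in Hspa1b, and reads are 75 bases long, so the tables cannot fix how reads were split between them. Hspa1a also overlaps the antisense gene Gm20481 over 2225 bases, and whether counting used strand is not given in the sources used here. Summed over both genes, the level was 7.87 ± 1.82 TPM in MC-38 controls and 24.2 ± 12.8 TPM at 12 h (log2 change 1.46 ± 0.27 SE, limma adjusted p = 0.00628).

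**Figure D2:**
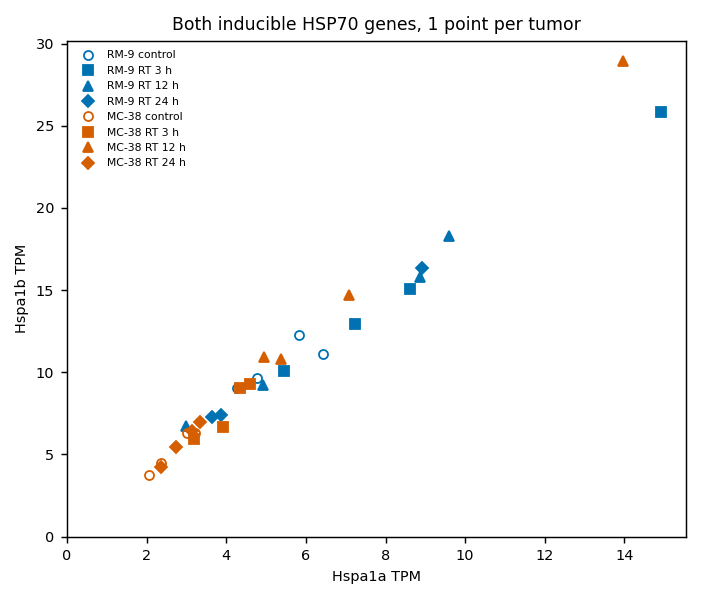
Hspa1b TPM (vertical axis) against Hspa1a TPM (horizontal axis), 1 point per tumor, colored by tumor model and shaped by group with open symbols for controls. The points lie along 1 line, with Hspa1b at 1.70 to 2.26 times Hspa1a, and MC-38 RT 12 h mouse 2 (13.96 and 28.9 TPM) lies farthest from the MC-38 controls.

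Neither gene passed the test in MC-38 tumors at the earlier or the later time. Hspa1b was at 9.01, 5.94, 6.66 and 9.30 TPM at 3 h and at 4.25, 5.47, 6.99 and 6.43 TPM at 24 h. The 3 h values overlapped controls in 1 mouse, and the 24 h values lay within or close to the control range. The log2 change was 0.54 ± 0.27 SE at 3 h (limma adjusted p = 0.272) and 0.15 ± 0.27 SE at 24 h (limma adjusted p = 0.739). For Hspa1a it was 0.51 at 3 h (limma adjusted p = 0.257) and 0.10 at 24 h (limma adjusted p = 0.803).

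A further 6 calls accompanied the HSP70 pair in MC-38 at 12 h, making 8 of 10 members higher (28.5% of all genes tested were called higher). The median of all genes shifted upward as well. The median gene rose by 0.33 on the log2 scale, against a median of 0.53 for the 10 members. MC-38 control mouse 1 stood apart, with a mitochondrial share of 40.6% (25.7 to 31.04% in the other controls) and a skeletal muscle sum of 14474 TPM, and without it the shift at 12 h was 0.21, the number of called genes went from 4875 to 1841, and 6 members passed. At 24 h the shift was 0.22 with that mouse and 0.10 without it, and the called genes went from 2159 to 1395. Of the HSP70 cofactors, Hsph1 went from 68.5, 77.7, 96.0 and 85.5 TPM in controls to 168, 170, 130 and 101 TPM, without overlap (1.71-fold, log2 change 0.78 ± 0.18 SE, limma adjusted p = 0.0139). Dnajb1 went from 33.7, 45.8, 51.5 and 46.2 TPM to 67.4, 75.5, 59.9 and 60.9 TPM (1.49-fold, 0.58 ± 0.15 SE, limma adjusted p = 0.0158). Bag3 had the tightest groups, with 21.0, 20.6, 24.3 and 20.9 TPM in controls and 32.9, 35.2, 32.7 and 32.7 TPM at 12 h (1.53-fold, 0.61 ± 0.10 SE, limma adjusted p = 0.00497). The constitutive Hspa8 (1.40-fold), Hspd1 (1.32-fold) and Hsp90aa1 (1.31-fold) passed with log2 changes of 0.49, 0.40 and 0.38. For each of these 6 genes every RT 12 h mouse was above every control mouse, as for 34.5% of all genes tested.

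After median-ratio scaling the 6 changes were smaller and none passed: Hsph1 0.43 (limma adjusted p = 0.120), Bag3 0.27 (limma adjusted p = 0.117), Dnajb1 0.23 (limma adjusted p = 0.0668), Hspa8 0.14, Hspd1 0.05 and Hsp90aa1 0.03. With that scaling 2 members were called higher (6.32% of all genes), and Hspa1a, Hspa1b and Dnajb1 were the 3 with every RT 12 h mouse above every control (13.8% of all genes). Hspe1 did not pass with either scaling, at 271, 332, 341 and 283 TPM in controls and 320, 356, 299 and 266 TPM at 12 h (log2 change 0.02, and -0.33 after median-ratio scaling, with limma adjusted p = 0.928 and 0.0947). After median-ratio scaling it was the 1 member with every RT 12 h mouse below every control, and 0 members were called lower (9.81% of all genes were). When 1 mouse was left out, Hsp90aa1 passed in 2 of 8 fits, Hspd1 in 5 of 8, Dnajb1 in 7 of 8 and the other 5 called members in all 8. The lowest count was 5, without RT 12 h mouse 2.

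**Figure D3:**
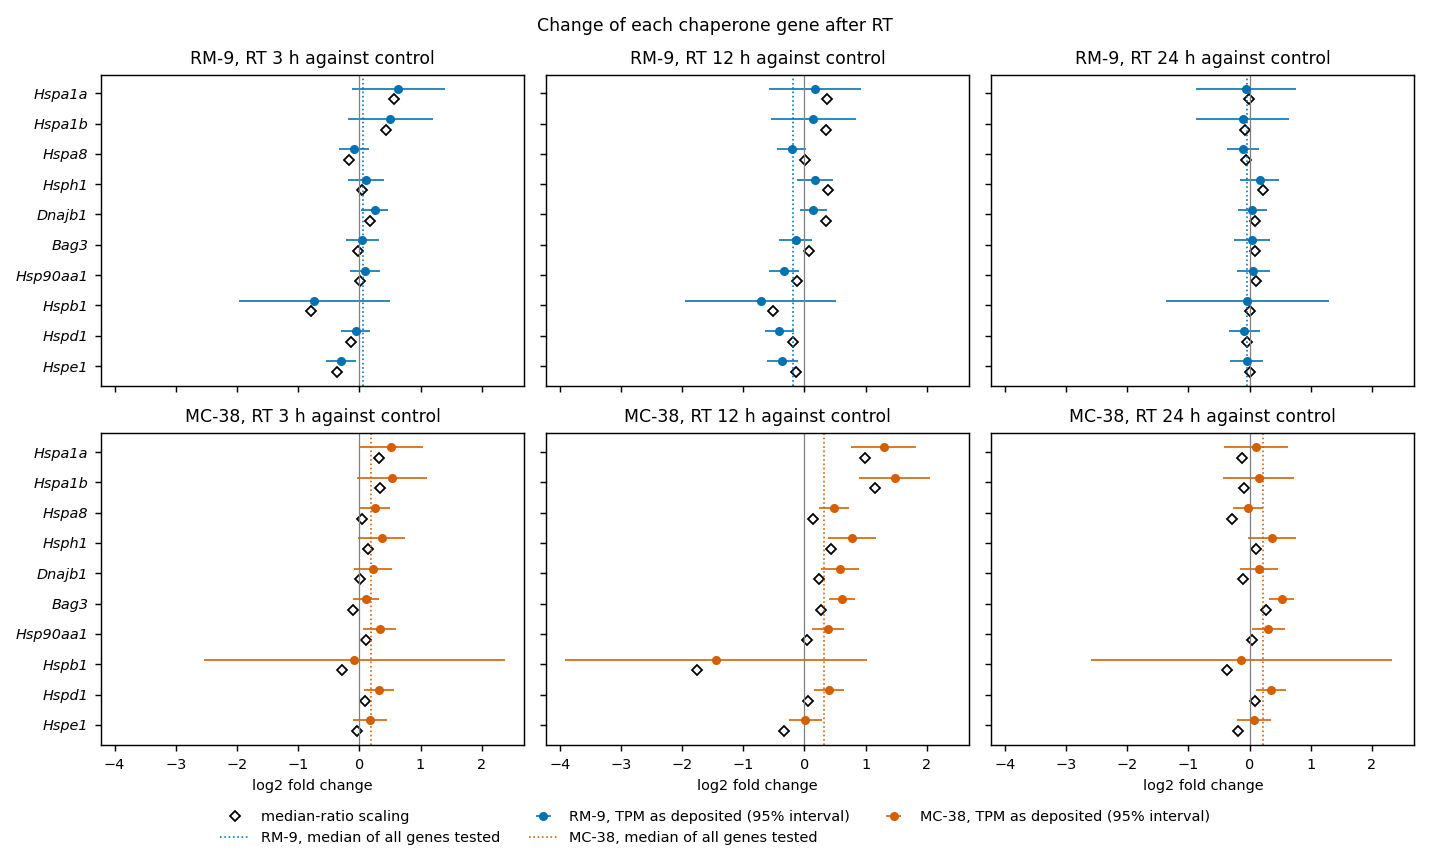
Log2 fold change of each chaperone gene against control (horizontal axis) for RM-9 (top row) and MC-38 (bottom row) at 3, 12 and 24 h after RT. Filled points with 95% intervals are TPM as deposited, open diamonds are after median-ratio scaling, and the dotted line is the median of all genes tested. In MC-38 at 12 h Hspa8 (0.49), Hspd1 (0.40) and Hsp90aa1 (0.38) lie nearest to the dotted line at 0.33, with Hspa1b (1.47) and Hspa1a (1.30) farthest to the right.

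Markers of other cell types moved between the same MC-38 groups. The summed level of 8 macrophage genes was 830 to 1330 TPM in controls and 304 to 721 TPM at 12 h, without overlap, and none of the 8 was below 0.5 TPM in all libraries of a group. For 8 T cell genes it was 28.6 to 39.9 TPM and 16.4 to 28.8 TPM. For 8 fibroblast genes (486 to 811 and 322 to 748 TPM), 7 endothelial genes (44.8 to 59.8 and 41.6 to 55.7 TPM) and 8 neutrophil genes (24.5 to 36.3 and 30.3 to 47.2 TPM) the ranges overlapped. Of the neutrophil genes, Ly6g did not exceed 0.168 TPM in any MC-38 library, and Mmp9 had the highest median over them, 18.0 TPM. The sum of 14 immediate early genes, which cells switch on quickly under many stimuli, was 406 to 631 TPM in controls, 642 to 740 TPM at 12 h and 650 to 749 TPM at 24 h, both without overlap with controls. In RM-9 the same sum was 328 to 408 TPM in controls and 330 to 429 TPM at 12 h, which overlapped. The RM-9 macrophage sum was also lower at 12 h, at 391 to 606 TPM in controls and 195 to 377 TPM. So was the RM-9 T cell sum, at 8.84 to 15.7 TPM in controls and 2.76 to 7.43 TPM at 12 h, both without overlap. All these sums are in TPM as deposited and were not repeated after median-ratio scaling. In that TPM the median gene of MC-38 rose on the log2 scale by 0.33 at 12 h and 0.22 at 24 h. The part of these sums in the chaperone changes was not tested. When TPM was recomputed without mitochondrially encoded genes, 7 of 10 members were called higher (19.6% of all genes), with Hspa1b at 1.37 (limma adjusted p = 0.00614), Hspa1a at 1.21 (limma adjusted p = 0.00674) and Hsp90aa1 no longer past the threshold (0.25, limma adjusted p = 0.0946). In bulk tumors, fewer cells of a type and less RNA per cell cannot be told apart.

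At 24 h in MC-38 tumors Bag3 was the 1 member still called higher (13.2% of all genes were). It was at 34.4, 30.5, 32.3 and 28.4 TPM, above all 4 controls, 1.44-fold higher (log2 change 0.52 ± 0.10 SE, limma adjusted p = 0.00398), but at 0.26 after median-ratio scaling (limma adjusted p = 0.134), where the median gene had risen by 0.22 in TPM. Hspd1 (0.36, limma adjusted p = 0.0522) and Hsp90aa1 (0.31, limma adjusted p = 0.111) did not pass, at 0.09 and 0.04 after median-ratio scaling, although with Bag3 they were the 3 members with every mouse above the controls (14.8% of all genes). Hspa8 had returned to 1125, 940, 1031 and 933 TPM beside 920, 935, 1107 and 1120 TPM in controls. At 3 h in MC-38 tumors limma called 0 members (0.0637% of all genes, in either direction), 3 of 10 had an unadjusted p under 0.05, as 19.9% of all genes did, and Dunnett's comparisons on TPM called 0.

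In RM-9 tumors the inducible HSP70 genes did not pass the test at any time. Hspa1b was at 12.3, 9.02, 11.1 and 9.66 TPM in controls, at 25.8, 15.1, 10.1 and 12.95 TPM at 3 h, at 6.74, 15.8, 18.3 and 9.24 TPM at 12 h, and at 7.26, 16.4 and 7.39 TPM at 24 h. All RT groups overlapped controls, and their spread between mice was wider. The log2 changes were 0.51 ± 0.33 SE at 3 h (limma adjusted p = 0.358), 0.15 at 12 h (limma adjusted p = 0.783) and -0.11 at 24 h (limma adjusted p = 0.999), with a 95% interval at 12 h of -0.55 to 0.85 and a change of 0.36 at 12 h after median-ratio scaling. Those of Hspa1a were 0.64 ± 0.36 SE (limma adjusted p = 0.292), 0.17 (limma adjusted p = 0.764) and -0.06 (limma adjusted p = 0.999).

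Among the other members in RM-9, Hspd1 fell at 12 h, from 354, 324, 329 and 397 TPM in controls to 237, 272, 289 and 257 TPM, without overlap. The fall was by 0.41 ± 0.11 SE on the log2 scale (limma adjusted p = 0.0374) and was the 1 call of 10 members (8.3% of all genes were called lower, and 19.4% had every RT mouse below every control). The median gene fell by 0.19 at that time, and after median-ratio scaling the change of Hspd1 was -0.19 (limma adjusted p = 0.231), and with TPM recomputed without mitochondrially encoded genes -0.26 (limma adjusted p = 0.121). The call held in 2 of 8 fits that left out 1 mouse, those without control mouse 3 and without RT 12 h mouse 3. Hspe1, which shares a bidirectional promoter region with Hspd1 and overlaps it over 112 bases, was at -0.36 (limma adjusted p = 0.0635), and Hsp90aa1 at -0.34 (limma adjusted p = 0.0720), or -0.14 and -0.12 after median-ratio scaling. With that scaling Hsph1 was at 0.39 (limma adjusted p = 0.138) and Dnajb1 at 0.36 (limma adjusted p = 0.0655), and these 2 members had every RT 12 h mouse above every control (3.56% of all genes) while Hspd1 had every one below (3.57% of all genes).

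At 3 h in RM-9 tumors limma called 0 members (0.228% of all genes, in either direction), 2 of 10 had an unadjusted p under 0.05, as 21.8% of all genes did, and Dunnett's comparisons called 0. These 2 were Dnajb1, with 13.8, 13.2, 13.1 and 12.99 TPM in controls and 17.0, 15.6, 14.5 and 16.5 TPM at 3 h (log2 change 0.25 ± 0.10 SE, limma adjusted p = 0.184), and Hspe1 (-0.30 ± 0.12 SE, limma adjusted p = 0.171). Dnajb1 was the 1 member with every RT mouse above every control, as for 9.88% of all genes. At 24 h limma called 0 members and 0 of all 14013 genes (0%), 0 members and 681 genes had an unadjusted p under 0.05, and Dunnett's comparisons called 0 members. Hsph1 was the 1 member with all 3 mice above all controls (2.01% of all genes), with 41.9 to 44.7 TPM beside 36.3 to 40.2 TPM.

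The difference between the models was tested directly, as the change in MC-38 minus the change in RM-9. At 12 h it was positive and past the threshold for 7 of 10 members (44.9% of all genes tested), including Hspa1b (1.33 ± 0.45 SE, limma adjusted p = 0.0204), Hspa1a (1.12 ± 0.45 SE, limma adjusted p = 0.0446), Hspd1 (0.81, limma adjusted p = 0.00177) and Bag3 (0.76, limma adjusted p = 0.00214). When 1 mouse was left out, the difference passed in 14 of 16 fits for Hspa1b and in 7 of 16 for Hspa1a and for Hsph1, and in all 16 for the other 4. The median gene differed by 0.50, and after median-ratio scaling no member passed (1.52% of all genes were called higher), with Hspa1b at 0.79 (limma adjusted p = 0.287), Hspa1a at 0.60 (limma adjusted p = 0.451), Hspd1 at 0.28 and Bag3 at 0.23. Without mitochondrially encoded genes Hspa1b was at 1.07 (limma adjusted p = 0.0867) and Hspa1a at 0.89 (limma adjusted p = 0.163). The difference in HSP70 between the models thus passed with TPM as deposited and with neither other scaling. At 3 h (0% of all genes called) and at 24 h (1.81%, all higher) limma called 0 members, with 3 and 2 members at an unadjusted p under 0.05, beside 9.89% and 22.2% of all genes.

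Hspb1, a small heat shock protein that holds unfolded clients and is abundant in muscle, behaved apart from the rest. It was at 67.8, 1.13, 1.77 and 16.7 TPM in the 4 MC-38 control mice and at 18.5, 15.5, 5.26 and 9.69 TPM in the 4 RM-9 control mice. No RT group passed the test (limma adjusted p of 0.318 and above in all 6 comparisons), and the log2 change of -1.44 at 12 h in MC-38 had a 95% interval of -3.91 to 1.02. The tumors were grown in the hind leg, and the summed TPM of 14 skeletal muscle genes ranged from 3.59 to 14474 between libraries.

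On the log2 scale Hspb1 followed that muscle sum across mice. Pearson's r was 0.873 in RM-9 (n = 15, permutation p = 3e-05, adjusted over 20 relations 0.0003) and 0.955 in MC-38 (n = 16, permutation p = 1e-05, the smallest that 100000 permutations can give, adjusted 0.0002). Spearman's rho was 0.918 and 0.953 (permutation p = 1e-05 and adjusted p = 0.0001 in each model). Without the 2 mice farthest from the median muscle sum r was 0.832 and 0.955, and within groups it was 0.903 and 0.967. Of the other members Hspe1 was related to the muscle sum in RM-9 with all groups pooled (r = 0.709, permutation p adjusted 0.0185, rho = 0.757, adjusted 0.0108). Its r was 0.691 without the 2 farthest mice and 0.457 within groups, where no p-value was computed. Hspa1b gave r = -0.216 in MC-38 (permutation p = 0.430) and rho = -0.341 (permutation p = 0.195), but r = 0.307 within groups. The muscle sum was 24.1 to 14474 TPM in MC-38 controls and 10.7 to 591 TPM at 12 h. Of the Hspb1 transcript 46.4% of 75-base windows also occur in the pseudogene Hsp25-ps1.

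**Figure D4:**
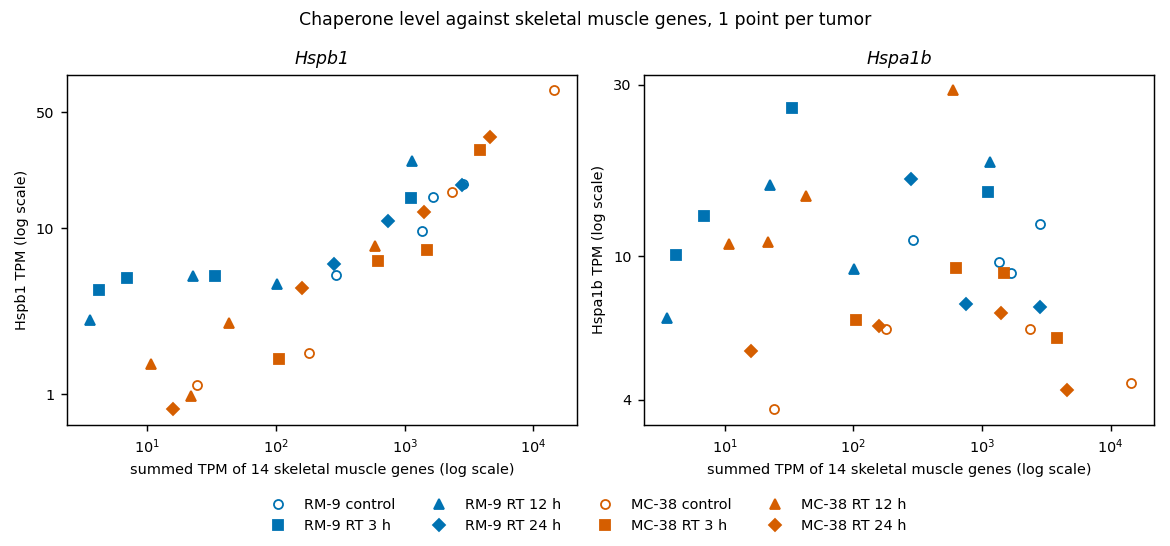
Hspb1 TPM (left) and Hspa1b TPM (right) against the summed TPM of 14 skeletal muscle genes, 1 point per tumor on log axes, colored by tumor model and shaped by group with open symbols for controls. Hspb1 climbs with the muscle sum (r = 0.873 in RM-9 and 0.955 in MC-38), whereas Hspa1b gave r = -0.216 in MC-38 over all mice and 0.307 within groups.

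Within groups, most pairs of members correlated positively from mouse to mouse, as a description over libraries that share their scaling to a fixed total. The correlation of log2 levels was positive for 44 of 45 pairs of members in RM-9 (15 libraries, median 0.65) and for 42 of 45 in MC-38 (16 libraries, median 0.45). Pairs of other genes were not computed, so these counts do not set the members apart from all genes. After the pair Hspa1a and Hspa1b, the closest were Hspa8 and Bag3 in RM-9 (0.938) and Hsp90aa1 and Hspd1 in MC-38 (0.924). The 5 non-member genes whose pattern was most like the mean of Hspa1a, Hspa1b, Hsph1 and Dnajb1, by the lower of their r in both models among 8373 genes, were Epb4.1l1 (0.771), Gm8337 (0.767), Pdxk (0.759), Kif13a (0.757) and Ppme1 (0.753).

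The wider chaperone network was followed through 86 further genes in 9 lists, none of them a member. In MC-38 at 12 h, 31 of the 83 tested were called higher and 0 lower, beside 28.5% and 2.59% of all genes. After median-ratio scaling 8 were higher and 1 lower, beside 6.32% and 9.81% of all genes. Their median log2 change was 0.31 beside 0.33 for all genes, and -0.04 beside 0.01 after that scaling. In TPM as deposited the higher ones included 4 of 7 HSP70 family genes and 5 of 11 J-domain genes. Among them were also 5 of 12 genes of HSP90 and its co-chaperones. The TRiC chaperonin, which folds actin and tubulin, had 0 of 8 genes called higher. Bag2, which regulates HSP70, went from 41.5 ± 6.73 to 66.7 ± 0.681 TPM (log2 change 0.69, limma adjusted p = 0.00497, and 0.35 after median-ratio scaling, limma adjusted p = 0.0115), and the J-domain gene Dnajb2 from 17.3 ± 2.17 to 27.8 ± 1.99 TPM (0.67, limma adjusted p = 0.00516, and 0.33, limma adjusted p = 0.00961). Hspa4l, an HSP110 relative of Hsph1, also passed with both scalings (0.76, limma adjusted p = 0.0141, and 0.42, limma adjusted p = 0.0303), as did Unc45a, a myosin chaperone that works with HSP90 (0.63, limma adjusted p = 0.0160, and 0.29, limma adjusted p = 0.0315). Hsf1 itself went from 27.5 ± 6.98 to 38.7 ± 4.72 TPM (0.51, limma adjusted p = 0.0380) and did not pass after median-ratio scaling (0.17, limma adjusted p = 0.393).

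At 24 h in MC-38 tumors the endoplasmic reticulum chaperones stood out by count, with 12 of 15 called higher (13.2% of all genes) and 9 of 15 after median-ratio scaling (7.81% of all genes). Their median log2 change was 0.54 beside 0.22 for all genes, and 0.28 beside -0.02 after that scaling. Calr, a calcium-binding chaperone of glycoproteins, went from 684 ± 96.5 to 1177 ± 63.7 TPM (0.79, limma adjusted p = 0.000314), and Pdia4, a disulfide isomerase, from 129 ± 23.0 to 218 ± 19.1 TPM (0.77, limma adjusted p = 0.00105). No other of the 9 lists had more than 2 of its genes called higher at that time. In RM-9 at 12 h, 13 of 82 tested network genes were called lower (8.3% of all genes), 7 of them among the 8 TRiC genes, such as Cct6a (251 ± 17.1 to 191 ± 21.9 TPM, log2 change -0.40, limma adjusted p = 0.0276). The cytosolic HSP90 gene Hsp90ab1 went from 1427 ± 45.8 to 1043 ± 151 TPM (-0.46, limma adjusted p = 0.0341), and after median-ratio scaling none of the 13 passed. In RM-9 at 3 h and 24 h and in MC-38 at 3 h none of the network genes was called.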

How the data were processed

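RNA was sequenced by the authors with a stranded mRNA kit and 75-base reads, and 1 abundance table per library was deposited. TPM, FPKM and coverage (mean read depth per base) were made by the authors within each library. FPKM and the deposited coverage served to estimate depth. The submitters' notes name bcl2fastq 2.17 and GRCm39, whereas 91.07% of the 45137 genes found in GENCODE M21 share a start or end with its GRCm38 models, 8 of the 10 members among them. The aligner and the abundance program are not given in the sources used here. The tables hold no counts, so the counting error of a gene is unknown, and a level near 0 TPM can rest on few reads.

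Rows of the same gene were summed. log2(TPM + 0.5) was analyzed with limma 3.58.1 in R 4.3.3 (lmFit, eBayes with an intensity trend) wherever the mean TPM reached 0.5, which left 14013 genes in RM-9, 15698 in MC-38 and 15358 over both models. Each model was fitted with its 4 groups, and each RT time was compared with control. Differences between models were contrasts in 1 fit of all 31 libraries. Benjamini-Hochberg adjustment ran over all genes of a comparison, at 0.05. The script was tested on simulated data. The p-values of limma and of Dunnett's comparisons measure the spread between mice within groups. The 45 pairs of libraries within groups correlated at 0.975 to 0.995 and none was identical. Mouse numbers were not used as a block, because same-numbered mice did not deviate together throughout. Their correlations ran from -0.39 to 0.069 at RM-9 12 h and from -0.24 to 0.55 at MC-38 24 h. Alternatives were other pseudocounts (0.1 and 1), filters (none, or a mean TPM of 5), median-ratio scaling, TPM without mitochondrially encoded genes, no trend, only 2 groups in the fit, a replicate block, Hspa1a and Hspa1b summed, Dunnett's comparisons on TPM and leaving out each mouse. Correlations with muscle genes used 100000 permutations over all mice of a model, regardless of group. Their p-values therefore also take in differences between groups. Other steps used scipy 1.17.1, pandas 2.3.3 and numpy 2.4.6 in Python 3.11.15, with matplotlib 3.10.9 for plots.

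Members and lists were chosen with earlier results of these data known. The text names all members, at most 2 genes per list and comparison with the smallest adjusted p past 0.05, the markers at or near 0 or defining a cell type, and the 5 genes of most like pattern with a mean TPM of at least 5 in both models.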

Additional observations from a re-analysis of the deposited data

Results flagged for a closer look

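Among 70 groups of 4 mice, 5 held a mouse far from the other 3 (the gap to the nearest, as a share of the whole range, above Dixon's 95% critical value), where chance gives about 1 group in 20. Bag3 in RM-9 RT 3 h mouse 3 was at 30.6 TPM beside 36.1 to 36.6 TPM (share 0.905). Bag3 in MC-38 control mouse 3 was at 24.3 TPM beside 20.6 to 21.0 TPM (share 0.889). In MC-38 RT 12 h mouse 2, the mouse with the highest Hspa1a and Hspa1b, Bag3 was at 35.2 TPM beside 32.7 to 32.9 TPM (share 0.933). Hspb1 was at 15.3 TPM in RM-9 RT 3 h mouse 2 beside 4.24 to 5.13 TPM (share 0.919), and at 25.3 TPM in RM-9 RT 12 h mouse 3 beside 2.80 to 5.16 TPM (share 0.895).

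For 7 members the change at 12 h differed between the models by the limma interaction contrast, with log2 differences (MC-38 minus RM-9) of 1.33 for Hspa1b, 1.12 for Hspa1a, 0.813 for Hspd1, 0.757 for Bag3, 0.72 for Hsp90aa1, 0.697 for Hspa8 and 0.607 for Hsph1. None of the 7 passed after median-ratio scaling. With TPM recomputed without mitochondrially encoded genes 3 did (Hspd1, Bag3 and Hsp90aa1), where 2123 of all 16266 genes tested were called higher.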

How the results depend on the processing

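Of 2037 values for single members under an alternative, 1899 stayed on their side of the threshold, and 116 lost and 16 gained a call. A further 6 changed sign and were called before or after. Uncalled values that changed sign count among the 1899. Hspe1 in MC-38 at 12 h, for example, went from 0.02 to -0.12 without mitochondrially encoded genes. The calls of Hspa1a and Hspa1b in MC-38 at 12 h held in all 24 and 25 alternatives (limma adjusted p up to 0.0455 and 0.0453); a filter of mean TPM 5 removes Hspa1a. The count of 8 members in that comparison became 2 with median-ratio scaling, 5 to 8 when 1 mouse was left out (5 without RT 12 h mouse 2), and 2 to 3 with both, an alternative chosen after seeing the data, in which Hsp90aa1 reversed to -0.014 without RT 12 h mouse 1. The 1 call in RM-9 at 12 h became 0 with no filter, median-ratio scaling, TPM without mitochondrially encoded genes, no trend or only 2 groups, 2 with a mean TPM of at least 5, 3 with Dunnett's comparisons (p not adjusted over genes), and 0 to 3 when 1 mouse was left out (3 without control mouse 3, 2 without RT 12 h mouse 3 and 0 without any other). The 1 call in MC-38 at 24 h became 2 with a mean TPM of at least 5 or Dunnett's comparisons, 0 with median-ratio scaling or only 2 groups, and 1 to 2 when 1 mouse was left out (2 without control mouse 2 or 3). The 7 differences between models at 12 h became 0 with median-ratio scaling and 3 without mitochondrially encoded genes (2123 of 16266 genes were called higher). They became 4 to 9 when 1 mouse was left out (4 without RM-9 RT 12 h mouse 1 or MC-38 RT 12 h mouse 2). The 0 at 24 h became 0 to 1 (1 without MC-38 control mouse 3). Between controls, median-ratio scaling reversed Hspa8 to -0.48, Hsp90aa1 to -0.12, Hspd1 to -0.23 and Hspe1 to -0.020, and leaving out mitochondrially encoded genes reversed Hspa8 to -0.24. With a replicate block, 8 members differed between models at 12 h, Dnajb1 joining (limma adjusted p = 0.0438), and every other count was as without it. Apart from the scalings and the smaller fits, whose construction changes the values directly, the cause was not tested. Levels near 1 TPM and groups of 3 or 4 mice limit how small a change could pass.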
